A study of Mus musculus with 6 samples.

Results

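Gluconeogenesis, the making of new glucose, was followed through 10 genes in mouse primary hepatocytes that were labelled for the presence or absence of STING. The genes encode 5 enzymes (*Pcx*, *Pck1*, *Pck2*, *Fbp1* and *G6pc*), 2 glucose transporters (*Slc37a4* and *Slc2a2*) and 3 regulators (*Ppargc1a*, *Crtc2* and *Sik1*). They are 10 of the 57180 genes in the deposited table, which lists the catalytic subunit of glucose-6-phosphatase under the name *G6pc*. The genes were chosen by their known function, with the differences between these libraries already known, so their own values are given as a description without a test.

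Hepatocytes came from male mice carrying a floxed STING allele without Cre, labelled LOXP, or from STING floxed mice crossed with Albumin-Cre mice, labelled KO. Albumin-Cre drives the recombinase from the albumin promoter in hepatocytes, and Cre was present only in the KO group, so effects of Cre itself and of the STING deletion cannot be told apart. All cells of both groups were kept for 24 h with the saturated fatty acid palmitate at 0.1 mM. The study used male mice of C57BL/6 background aged 8 to 10 weeks. There was no group without palmitate, and the number of animals behind each library is not given in the sources used here. The culture medium described in the methods held 0.1 µM dexamethasone, a synthetic glucocorticoid, and 10% serum. There were 3 libraries per group, with 14726983 to 18536985 counted reads each.

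The liver makes glucose during fasting from lactate, amino acids and glycerol. Pyruvate is carboxylated by pyruvate carboxylase (*Pcx*), and the product is turned into phosphoenolpyruvate by the PEPCK enzymes, of which *Pck1* encodes the cytosolic and *Pck2* the mitochondrial form. Fructose bisphosphatase (*Fbp1*) and glucose-6-phosphatase catalyse the later irreversible steps. Glucagon, through cAMP, and glucocorticoids are known to raise *Pck1* and *G6pc* transcription, while insulin lowers it.

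The promoters of *Pck1* and *G6pc* are shown because these genes had the largest differences of the 10. Each run holds the 250 bases before the RefSeq transcription start, 5′ to 3′ on the gene's strand, in GRCm38.p6 (*Pck1*, plus strand, chr2:173152823-173153072; *G6pc*, plus strand, chr11:101367466-101367715). Capitals mark matches to TTACGTNA, a form of the cAMP response element that was searched for after the sequences had been seen, and to TATAAA.
Pck1: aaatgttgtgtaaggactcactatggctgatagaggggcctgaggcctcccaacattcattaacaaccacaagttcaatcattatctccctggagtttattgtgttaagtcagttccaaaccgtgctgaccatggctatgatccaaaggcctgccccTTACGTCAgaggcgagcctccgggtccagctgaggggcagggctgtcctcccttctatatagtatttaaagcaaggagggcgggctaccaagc
G6pc: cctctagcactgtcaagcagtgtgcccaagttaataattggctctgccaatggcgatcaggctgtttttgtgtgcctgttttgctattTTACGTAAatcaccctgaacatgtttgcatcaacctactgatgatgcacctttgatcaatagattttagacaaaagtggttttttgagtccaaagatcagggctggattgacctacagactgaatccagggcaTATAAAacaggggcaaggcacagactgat

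In *Pck1* the TTACGTNA match began 93 bases before the start, and in *G6pc* 162 bases before it. Windows of 300 bases, from 250 before to 50 after a start, were searched on both strands in 32851 promoters, and 0.898% of them held TTACGTNA. The shorter TGACG, which overlaps the *Pck1* match on its reverse strand, was in 20.8% of all windows and in 3 of the 8 genes with a window, *Pck1*, *Ppargc1a* and *Slc37a4*. TATAAA was in 13.6% of all windows, and in *G6pc* it began 29 bases before the start. It was also in 1 of the 3 windows of *Slc37a4*. The letters TGACGTCA (1.79% of all windows), TGTTTAC (3.65%) and AGAACA (19%) were in none of the 11 windows of these 8 genes, which says only that they are absent from these stretches. *Crtc2* and *Sik1* had no window in the table.

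Before the members, the labels were checked on the targeted gene. *Sting1* (ENSMUSG00000024349) had 19, 16 and 23 counts in LOXP1, LOXP2 and LOXP3 and 24, 23 and 15 counts in KO1, KO2 and KO3 (log2 fold change -0.08, SE 0.30, adjusted p = 0.883 in edgeR's quasi-likelihood test). The counts therefore did not show the deletion, and which exons were removed is not given in the sources used here. The study also checked the knockout by RT-PCR of *sting* mRNA, which is not analysed here. Directions are stated for the libraries labelled KO. Of 14151 genes tested, 3274 (23.1%) had an adjusted p under 0.05, of which 1641 were lower (11.6% of those tested) and 1633 higher (11.5%) in the libraries labelled KO. By the study's criteria for a differentially expressed gene (DEG), which add an absolute log2 fold change above 1 and mean FPKM above 1 in either group, 290 genes (2.05%) were DEGs. Without KO1 the genes under 0.05 numbered 1088 lower and 1058 higher, and without KO2 they numbered 1052 lower and 922 higher. Hepatocyte markers such as *Alb* were abundant in every library, with at least 6468 FPKM for *Alb*.

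The members did not move as a block. *Pck1* and *G6pc* were lower by about 3 log2 units in the libraries labelled KO, *Slc2a2* and *Ppargc1a* by about 1.2, and *Slc37a4* by 0.48, whereas *Fbp1* was higher by 0.46 and *Pcx*, *Pck2*, *Crtc2* and *Sik1* differed by 0.14 or less. All 10 passed the filter on low counts, *G6pc* only through the LOXP libraries. Of the 10, 6 had an adjusted p under 0.05, 5 of them lower, beside 23.1% of all genes tested, and 2 were DEGs, beside 2.05%. The groups did not overlap in normalized CPM for the same 6 genes, beside 40.7% of all genes tested. These counts follow from how the genes were chosen and nothing is read from them. In bulk RNA, fewer cells of a type and less RNA per cell cannot be told apart.

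**Figure D1:**
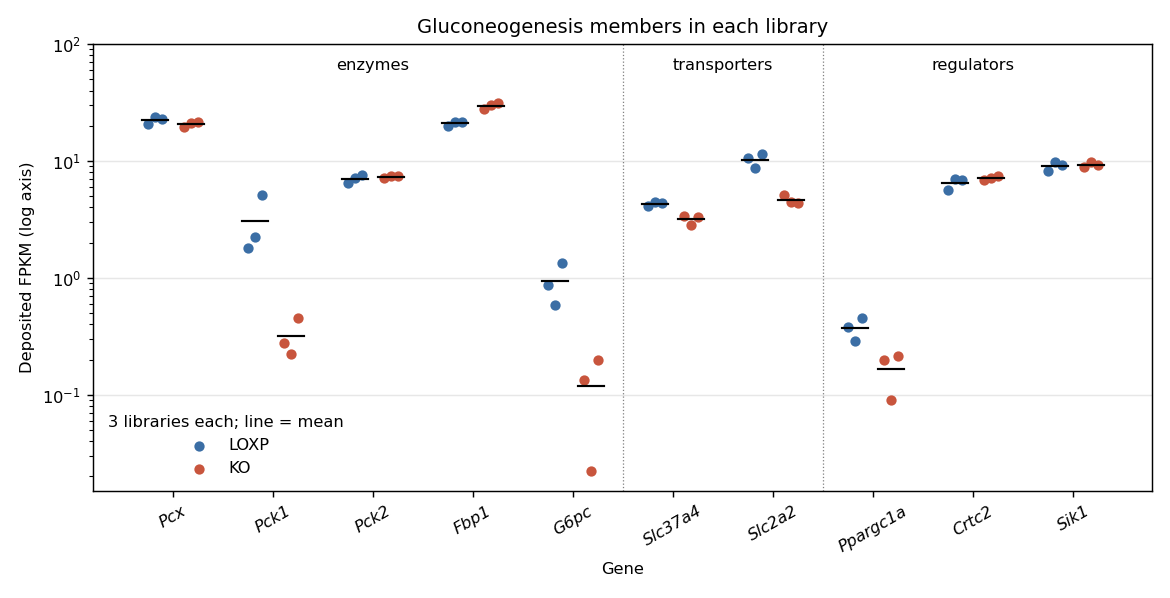
FPKM (log axis) of the 10 genes in each of the 6 libraries, grouped by role, with a line at each group's mean. The KO points of *Pck1* lie between 0.221 and 0.457 FPKM, below all LOXP points (1.78 to 5.14), while the points of *Pcx*, *Pck2*, *Crtc2* and *Sik1* overlap between the groups.

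Among the enzymes, *Pck1* (ENSMUSG00000027513, chromosome 2, 172994841 to 173001066 in the table's positions, for which the submitters' processing notes list GRCm39) encodes the cytosolic PEPCK, a rate-controlling enzyme of the pathway. It had 159, 184 and 442 counts in LOXP1, LOXP2 and LOXP3 and 24, 23 and 43 counts in KO1, KO2 and KO3. LOXP3 was highest, at 2.90 times the CPM (counts scaled to the TMM-normalized library size) of LOXP1, and no KO library reached the lowest LOXP library. The log2 fold change was -3.30 (SE 0.45), which is 89.8% lower. Without LOXP3 it was -2.70. Pooled over the libraries, the LOXP level was 9.88 times the KO level, with an exact 95% interval, for counting error alone, of 7.94 to 12.4. This interval leaves out the spread between libraries, so it is no test of the difference. Among 11102 genes whose mean FPKM exceeded 1 in LOXP or KO, *Pck1* had the 11th lowest log2 fold change.

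*G6pc* (ENSMUSG00000078650, chromosome 11, 101258387 to 101268729) encodes the catalytic subunit that releases free glucose at the end of the pathway. Its counts were low, 33, 21 and 50 in LOXP1, LOXP2 and LOXP3 and 5, 1 and 8 in KO1, KO2 and KO3. The groups did not overlap, with 1 count in the lowest KO library. The log2 fold change was -3.03 (SE 0.55), -2.51 without KO2 and -3.63 without KO3. The pooled LOXP level was 8.42 times the KO level, with an exact 95% interval from 4.80 to 15.9 for counting error alone. The spread between libraries is left out of it, and it is no test. The highest library had 2.24 times the CPM of the lowest in LOXP and 8.65 times in KO. It did not count as a DEG because its mean FPKM was 0.934 ± 0.385 in LOXP and 0.118 ± 0.0886 in KO (SD, n = 3), under 1 in both.

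*Fbp1* (ENSMUSG00000069805, chromosome 13, 63012567 to 63036096), the liver fructose bisphosphatase, went the other way. It had 788, 796 and 828 counts in LOXP1, LOXP2 and LOXP3 and 1069, 1394 and 1300 counts in KO1, KO2 and KO3. In FPKM these were 21.1 ± 1.03 and 29.6 ± 1.78 (SD, n = 3 per group), without overlap. The log2 fold change was 0.46 (SE 0.08), or 37.1% higher, and it lay between 0.41 and 0.51 with any library left out.

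*Pcx* (ENSMUSG00000024892, chromosome 19, 4560500 to 4671780), the entry enzyme for lactate and alanine carbon, had 2121, 2271 and 2257 counts in LOXP1, LOXP2 and LOXP3 and 1972, 2542 and 2346 in KO1, KO2 and KO3. Its groups overlapped, and the log2 fold change was -0.14 (SE 0.08). *Pck2* (ENSMUSG00000040618, chromosome 14, 55777723 to 55788699), the mitochondrial PEPCK, had 1751, 1779 and 1970 counts in LOXP1, LOXP2 and LOXP3 and 1904, 2344 and 2120 in KO1, KO2 and KO3, with a log2 fold change of 0.03 (SE 0.07). The KO libraries lay within the LOXP range of CPM for *Pck2*.

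The PEPCK forms thus made up different shares of the summed PEPCK level. *Pck1* held 21.6%, 23.9% and 40.5% of the summed *Pck1* and *Pck2* FPKM in LOXP1, LOXP2 and LOXP3 and 3.69%, 2.89% and 5.80% in KO1, KO2 and KO3. The mitochondrial form was the larger part in every library, and the groups did not overlap. This share depends on the gene length used. The length implied by the deposited FPKM and counts of *Pck2* was 17048 bases, above the 10977 bases the gene spans, and that of *Slc37a4* (6343) was above its span of 6117, so their FPKM is lower than any length within the gene would give. Per kilobase of the union of annotated exons (GENCODE M21, 7806 bases for *Pck2* and 3429 for *Pck1*), the mean share was 23.3% ± 9.12 in LOXP and 3.13% ± 1.15 in KO, beside 28.7% ± 10.3 and 4.13% ± 1.5 in FPKM (SD, n = 3).

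Both glucose transporters were lower. *Slc2a2* (ENSMUSG00000027690, chromosome 3, 28752052 to 28785508) encodes GLUT2, the glucose transporter of the hepatocyte plasma membrane. It had 1189, 916 and 1242 counts in LOXP1, LOXP2 and LOXP3 and 566, 584 and 517 counts in KO1, KO2 and KO3. In CPM the lowest LOXP library (64.1) was above the highest KO library (36.1), and the log2 fold change was -1.18 (SE 0.11), or 55.8% lower.

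*Slc37a4* (ENSMUSG00000032114, chromosome 9, 44308149 to 44314265) encodes the transporter that carries glucose-6-phosphate into the endoplasmic reticulum, where glucose-6-phosphatase acts. It had 411, 415 and 426 counts in LOXP1, LOXP2 and LOXP3 and 331, 331 and 354 in KO1, KO2 and KO3. Its groups did not overlap, but the step was small, with a log2 fold change of -0.48 (SE 0.09), or 28.2% lower. Its level varied little within a group, by at most 1.18 times between libraries, whereas its partner *G6pc* varied 2.24 times in LOXP.

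Of the regulators, *Ppargc1a* (ENSMUSG00000029167, chromosome 5, 51611592 to 51725068) encodes a coactivator of *Pck1* and *G6pc* transcription and of mitochondrial biogenesis. It had 51, 36 and 58 counts in LOXP1, LOXP2 and LOXP3 and 26, 14 and 30 in KO1, KO2 and KO3, the lowest FPKM of the 10 genes in LOXP. No KO library reached the lowest LOXP library in CPM. The log2 fold change was -1.21 (SE 0.33). The pooled LOXP level was 2.35 times the KO level, with an exact 95% interval from 1.75 to 3.17 for counting error alone. That interval also leaves out the spread between libraries. Without LOXP1, LOXP3, KO1 or KO2 the log2 fold change of *Ppargc1a* was -1.20, -1.06, -1.35 and -0.90. Its adjusted p was over 0.05 in each of these fits. It is not read as a test, because the gene was chosen with the differences already known.

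*Crtc2* (ENSMUSG00000027936, chromosome 3, 90161470 to 90171432), the coactivator of CREB that glucagon brings into the nucleus, had 614, 704 and 716 counts in LOXP1, LOXP2 and LOXP3 and 731, 902 and 859 in KO1, KO2 and KO3 (log2 fold change 0.11, SE 0.10). *Sik1* (ENSMUSG00000024042, chromosome 17, 32063224 to 32074778), a kinase that keeps CRTC2 in the cytoplasm and is itself induced by cAMP, had 796, 886 and 864 counts in LOXP1, LOXP2 and LOXP3 and 838, 1103 and 940 in KO1, KO2 and KO3 (log2 fold change -0.01, SE 0.09). Both overlapped between the groups. CRTC2 is controlled by phosphorylation, which RNA counts do not measure.

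**Figure D2:**
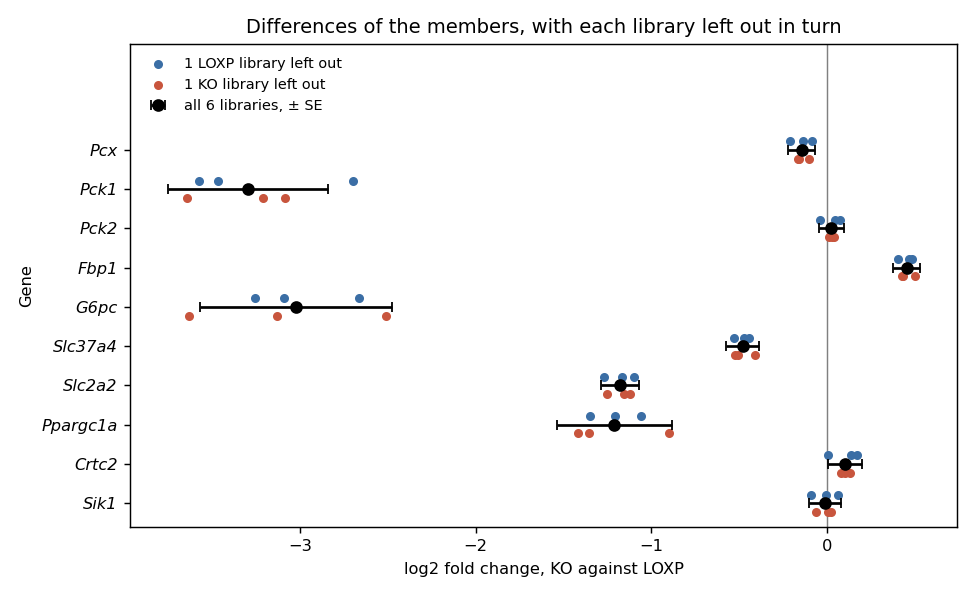
Log2 fold change of each member, KO against LOXP, from all 6 libraries with its standard error (black) and with 1 library left out (blue for a LOXP library, red for a KO library). *Pck1* ranges from -3.64 to -2.70 and *G6pc* from -3.63 to -2.51, and the points of *Pck2* and *Sik1* lie on both sides of 0.

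Within groups, the 3 scarce members varied most. LOXP3 was the highest LOXP library in CPM for *Pck1*, *G6pc* and *Ppargc1a*, and also for *Slc2a2* and *Pck2*, but not for *Pcx*, *Fbp1*, *Slc37a4*, *Crtc2* or *Sik1*. KO2 was the lowest KO library for *Pck1*, *G6pc*, *Ppargc1a* and *Slc37a4*. The ratio of the highest to the lowest library in LOXP was 2.90 for *Pck1*, 2.24 for *G6pc* and 1.52 for *Ppargc1a*, against 1.12 to 1.28 for the other 7 members.

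By mean FPKM in LOXP the order ran from *Pcx* (22.4) and *Fbp1* (21.1), whose libraries overlapped, through *Slc2a2* (10.2), *Sik1* (9.12), *Pck2* (7.03), *Crtc2* (6.47), *Slc37a4* (4.30) and *Pck1* (3.05) to *G6pc* (0.934) and *Ppargc1a* (0.374). Neighbours whose libraries also overlapped were *Slc2a2* and *Sik1*, *Pck2* and *Crtc2*, and *Slc37a4* and *Pck1*. In KO the order was *Fbp1* (29.6), *Pcx* (20.8), *Sik1* (9.28), *Pck2* (7.34), *Crtc2* (7.14), *Slc2a2* (4.62), *Slc37a4* (3.17), *Pck1* (0.318), *Ppargc1a* (0.167) and *G6pc* (0.118), in which *Pck2* overlapped with *Crtc2* and *Ppargc1a* with *G6pc*. Per kilobase of exon union, *Fbp1* (31.3 CPM per kilobase) and *Pcx* (30.9) still led in LOXP, *Pck2* stood 3rd instead of 5th, and *Pck1*, *G6pc* and *Ppargc1a* kept the last 3 ranks.

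Irreversible steps of gluconeogenesis are opposed by glycolytic enzymes, and the ratio of such enzymes was taken in each library. For *Pck1* to *Pklr*, the liver pyruvate kinase, the log2 ratio of FPKM was -5.15, -5.15 and -3.80 in LOXP1, LOXP2 and LOXP3 and -7.29, -7.69 and -6.62 in KO1, KO2 and KO3, a mean difference of -2.50. The log2 ratio of *Pcx* to *Pklr* was higher in KO, at -1.67 ± 0.05 in LOXP and -1.10 ± 0.04 in KO (SD, n = 3), a difference of 0.57. For *Fbp1* to *Pfkl*, the liver phosphofructokinase, it was 1.27 ± 0.11 in LOXP and 2.17 ± 0.07 in KO, a difference of 0.89. None of these 3 pairs overlapped between the groups. Both genes of a pair enter its ratio. *Pcx* itself had a log2 fold change of -0.14, with overlapping groups, and *Pklr* had -0.72. *Pkm*, another pyruvate kinase gene, went the other way, from 34.8 ± 3.89 in LOXP to 49.4 ± 2.70 FPKM in KO (SD, n = 3). Its log2 fold change was 0.47 (adjusted p = 0.00818 in edgeR's quasi-likelihood test). The ratios to *Pklr* leave *Pkm* out, so they do not describe pyruvate kinase as a whole. *Fbp1* had 0.46 and *Pfkl* had -0.44.

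**Figure D3:**
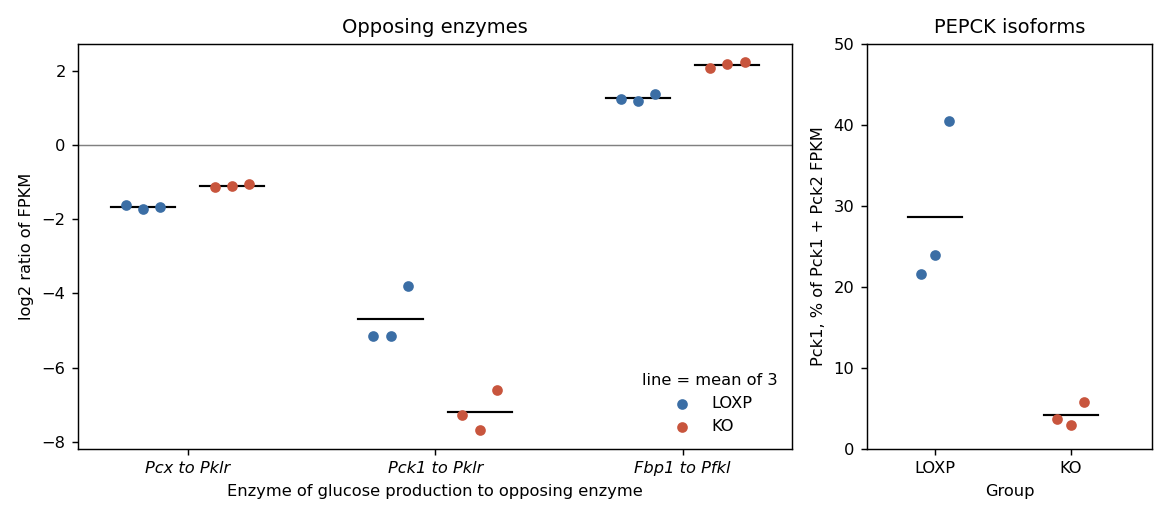
Left, log2 ratio of the FPKM of an enzyme of glucose production to that of its opposing enzyme in each library, with a line at each group's mean. Right, the share of *Pck1* in the summed *Pck1* and *Pck2* FPKM. The groups separate for *Pcx* to *Pklr*, *Pck1* to *Pklr* and *Fbp1* to *Pfkl*, and the *Pck1* share is at least 21.6% in LOXP and at most 5.80% in KO.

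The rest of the pathway was followed in lists written by function, with tests from the same edgeR quasi-likelihood fit over all genes. Earlier results of these data were known when the lists were chosen, so their counts are not independent of this comparison. Of 106 listed genes in the table, 102 were tested. At an adjusted p under 0.05, 27 of these were lower in KO and 14 higher, with a median log2 fold change of -0.06, beside 11.6% and 11.5% of all genes tested and a median of -0.002. The higher ones numbered 8 without LOXP2, 7 without KO1 and 7 without KO2. The 5 DEGs among them, which include *Pdk2*, *Igfbp1* and *Nr0b2*, were all lower.

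Enzymes that work in both directions of the pathway were mixed, with 2 lower and 2 higher of 8 tested and a median of 0.03. *Aldoa*, an aldolase, rose from 50.5 ± 3.52 to 82.2 ± 6.46 FPKM (SD, n = 3; log2 fold change 0.67, adjusted p = 8.91e-04). *Eno1*, an enolase, rose by 0.28 (adjusted p = 0.00639) and *Pgk1*, phosphoglycerate kinase, fell by 0.17 (adjusted p = 0.0373, over 0.05 with any library but LOXP3 left out). Among the other isoenzymes, *Fbp2*, the muscle fructose bisphosphatase, had a log2 fold change of -0.98 with an adjusted p of 0.0495, which was over 0.05 with any library but LOXP1 left out. *G6pc3*, the widely expressed glucose-6-phosphatase, had 0.11 (adjusted p = 0.673), and *G6pc2* had no count.

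Of 22 tested genes that bring substrates into the pathway, 9 were lower, 1 was higher and 12 did not pass, with a median of -0.17. *Aqp9*, the glycerol channel of the hepatocyte, fell from 13.0 ± 0.674 to 7.77 ± 0.540 FPKM (log2 fold change -0.78, adjusted p = 2.04e-04). *Gpt2*, an alanine aminotransferase, fell by 0.69 (adjusted p = 2.45e-04), *Tat*, tyrosine aminotransferase, by 0.83 (adjusted p = 0.00320), and *Slc38a4*, an amino acid transporter, by 0.28 (adjusted p = 0.00338).

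Of 12 tested glycolytic enzymes that oppose gluconeogenesis, and their regulators, 6 were lower, 1 (*Pkm*) was higher and 5 did not pass, with a median of -0.38. *Pdk2*, a kinase that switches off pyruvate dehydrogenase, fell by 1.14 (adjusted p = 8.49e-05), *Pklr* by 0.72 (adjusted p = 8.58e-04) and *Pfkl* by 0.44 (adjusted p = 0.00586). *Pdk2* spares pyruvate for gluconeogenesis, so not every gene of this list acts against it.

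In the glucagon and cAMP list, 2 genes were lower and 5 higher of 19 tested, with a median of 0.000. The lower ones were *Gcgr*, the glucagon receptor, which fell from 10.4 ± 0.845 to 6.16 ± 0.346 FPKM (log2 fold change -0.78, adjusted p = 6.08e-04), and *Creb3l3*, a liver transcription factor of the CREB family, which fell by 0.59 (adjusted p = 8.44e-04). *Prkaca*, the catalytic subunit of protein kinase A, rose by 0.28 (adjusted p = 0.00957, and 0.0502 without KO2) and *Crebbp*, a CREB-binding acetyltransferase, by 0.32 (adjusted p = 0.00994). The 7 calls became 4 without LOXP2, KO1 or KO2.

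Of 7 genes of the SIK and AMPK kinases, 2 were higher. They were *Prkaa1* (log2 fold change 0.24, adjusted p = 0.0349) and *Prkaa2* (0.24, adjusted p = 0.0430), the catalytic subunits of AMPK, and neither passed without LOXP2, LOXP3, KO1 or KO2. In the insulin and FOXO list, 2 of 12 were lower. *Igfbp1*, a secreted protein whose gene is a target of FOXO1 and is repressed by insulin, fell from 320 ± 44.9 to 124 ± 5.01 FPKM (log2 fold change -1.40, adjusted p = 8.81e-05), and *Pik3r1*, a regulatory subunit of phosphoinositide kinase, fell by 0.54 (adjusted p = 0.00150).

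Of 20 transcription factors and coactivators tested, 5 were lower and 3 higher, with a median of -0.03. *Hnf4a*, a master regulator of hepatocyte genes, fell from 34.1 ± 2.0 to 23.2 ± 1.02 FPKM (log2 fold change -0.59, adjusted p = 3.38e-04). *Prox1*, a homeobox factor of liver development, fell by 0.67 (adjusted p = 0.00139). *Nr0b2*, the corepressor SHP, had 20, 25 and 40 counts in LOXP1, LOXP2 and LOXP3 and 2, 5 and 11 in KO1, KO2 and KO3 (log2 fold change -2.40, adjusted p = 0.0113, and 0.0503 without KO2). *Nr0b2* passed the filter on low counts only through the LOXP libraries. *Nr4a2*, an immediate early nuclear receptor induced by cAMP, rose by 0.96 (adjusted p = 0.00632). The 8 calls became 5 without LOXP2, KO1 or KO3 and 3 without KO2.

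**Figure D4:**
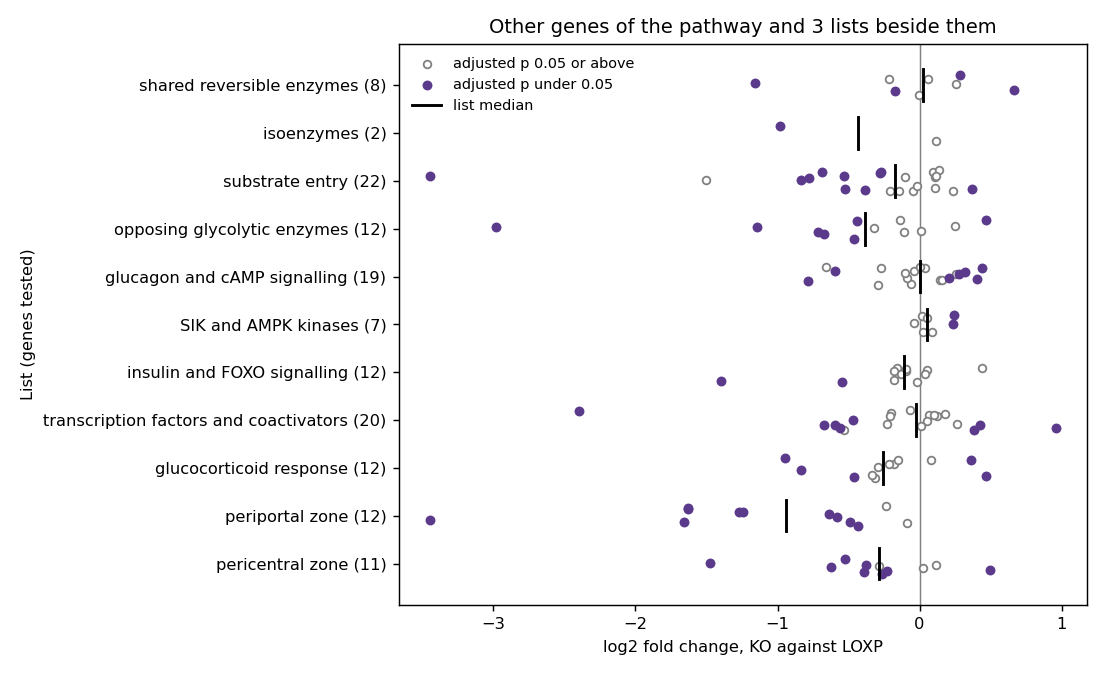
Log2 fold change, KO against LOXP, of the tested genes of 8 lists of the pathway and 3 lists beside it (filled, adjusted p under 0.05; open, 0.05 or above; bar, list median). The medians run from -0.94 in the periportal list to 0.05 in the SIK and AMPK list. The point furthest to the left in the substrate entry and periportal lists is *Sds*, which is in both, at -3.44 (SE 0.81). It rests on few counts, 18, 29 and 24 in LOXP1, LOXP2 and LOXP3 and 7, 0 and 0 in KO1, KO2 and KO3. *Sds* passed the filter on low counts only through the LOXP libraries.

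Because gluconeogenesis is strongest near the portal vein and *Pck1* responds to glucocorticoids, further lists were set beside the members. Of 12 periportal genes, 10 were lower, with a median of -0.94, led by *Hsd17b13* (log2 fold change -1.63, adjusted p = 5.59e-06), a lipid droplet enzyme, and *Cps1* (-1.24, adjusted p = 2.66e-05), the entry enzyme of the urea cycle. *Aldh1b1*, an aldehyde dehydrogenase, fell by 1.27 (adjusted p = 2.28e-04) and *Arg1*, arginase, by 1.63 (adjusted p = 3.66e-04). Of 11 pericentral genes tested, 7 were lower and 1 higher, with a median of -0.29. *Slc1a2*, a glutamate transporter, fell by 1.47 (adjusted p = 0.00136), *Rgn*, regucalcin, by 0.62 (adjusted p = 0.00318) and *Cyp1a2*, a cytochrome P450, by 0.52 (adjusted p = 0.00595), while *Oat*, ornithine aminotransferase, rose by 0.50 (adjusted p = 0.00165). The pericentral calls became 4 without LOXP3 and 5 without KO1.

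Of 12 glucocorticoid response genes, 3 were lower and 2 higher, with a median of -0.26. *Tdo2*, tryptophan dioxygenase, fell by 0.94 (adjusted p = 7.48e-04) and *Tat*, also counted under substrate entry, by 0.83. *Mt1*, a metallothionein, fell by 0.46 (adjusted p = 0.0317, over 0.05 with any library but LOXP1 left out). *Dusp1*, a phosphatase, rose by 0.37 (adjusted p = 0.0137, over 0.05 without KO1 or KO2). The 5 calls became 3 without LOXP3 and 2 without KO1 or KO2.

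Markers of hepatocytes moved in the same direction as *Pck1* and the transporters. Of 19 tested, 14 were lower, with a median of -0.40, and the summed FPKM of the list was 16817 to 18930 in LOXP and 12940 to 13058 in KO. *Alb*, albumin, fell by 0.27 (adjusted p = 0.00319), *Hpx*, hemopexin, by 1.33 (adjusted p = 4.24e-05), and *Apoa1*, an apolipoprotein, had -0.09 (adjusted p = 0.232). The part of this shift in the members' differences was not tested.

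Markers of other liver cells were present at lower levels. Of 13 macrophage and Kupffer cell markers tested, 2 were lower (4 without LOXP2), with summed FPKM of 67.0 to 84.6 in LOXP and 53.5 to 63.3 in KO. *Cd68*, the largest part of this sum, went from 37.5 ± 2.59 to 21.1 ± 1.66 FPKM and fell by 0.87 (adjusted p = 4.21e-04). *Mpeg1* fell by 0.69 (adjusted p = 0.00401) and *Lyz2* had 0.18 (adjusted p = 0.353). Log2 fold changes were below 0 for 8 of the 13 and above 0 for 5. Besides *Lyz2*, the latter were *Cd5l* (0.94), *Vsig4* (0.20), *Clec4f* (0.12) and *Marco* (0.05), none under an adjusted p of 0.05. Of 11 endothelial markers, 1 was lower (2 without LOXP2), with sums of 35.0 to 37.7 and 32.6 to 35.6, and *Cdh5*, *Lyve1* and *Eng* had log2 fold changes of 0.01, -0.20 and -0.06 (adjusted p = 0.977, 0.331 and 0.805). None of 10 stellate cell and fibroblast markers passed in edgeR or DESeq2, with 1 under an unadjusted p of 0.05 in edgeR. Their sums were 11.2 to 13.5 in LOXP and 13.2 to 14.0 in KO, and *Sparc*, *Dcn* and *Acta2* had -0.04, 0.16 and 0.23 (adjusted p = 0.845, 0.247 and 0.532).

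Of 5 cholangiocyte markers tested, 3 were lower and 1 higher, with sums of 119.6 to 140.7 in LOXP and 62.0 to 73.0 in KO, of which *Cldn4*, a claudin, held 82.9% to 84.2% and fell by 1.03 (adjusted p = 2.81e-04). *Sox9* fell by 0.87 (adjusted p = 4.08e-04) and *Spp1* by 2.04 (adjusted p = 3.88e-05), while *Krt19*, a keratin, rose by 0.82 (adjusted p = 0.0479, over 0.05 with any library but LOXP1 left out), with 46, 23 and 27 counts in LOXP1, LOXP2 and LOXP3 and 57, 77 and 58 in KO1, KO2 and KO3. *Epcam* and *Krt7*, 2 other markers of these cells, had 43 and 18 counts over all 6 libraries. The 10 lymphocyte and neutrophil markers had 180 counts in all, 6 of them none, and *Ptprc*, the one tested, had a log2 fold change of -0.82 (adjusted p = 0.184). The part of these cells in the members' differences was not tested.

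By the root mean square difference of centred log2 CPM over the 6 libraries, among genes whose mean FPKM exceeded 1 in LOXP or KO, those whose pattern was most like that of *Pck1* included *Selenbp2* (0.43 log2 units) and *Saa2* (0.51). Those most like *G6pc* were *Fgf21* (0.21), *Slc25a47* (0.22) and *4931408D14Rik* (0.27). The measure takes in the step between the groups as well as the spread within them. Within LOXP the highest library had 1.23 times the CPM of the lowest for *Selenbp2* and 1.05 times for *Saa2*, against 2.90 for *Pck1*. That ratio was 1.32 for *Fgf21*, 1.83 for *Slc25a47* and 1.41 for *4931408D14Rik*, against 2.24 for *G6pc*. *Selenbp2* had 1122, 1067 and 1322 counts in LOXP1, LOXP2 and LOXP3 and 135, 166 and 160 in KO1, KO2 and KO3. *Fgf21* had 163, 126 and 176 counts in LOXP1, LOXP2 and LOXP3 and 45, 34 and 45 in KO1, KO2 and KO3. *G6pc* and *Ppargc1a* did not reach that FPKM and were not candidates.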

How the data were processed

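RNA of 6 libraries of palmitate-treated primary hepatocytes, 3 per group by their labels, was sequenced by the authors as 150 bp paired-end reads. The submitters' processing notes list fastp, HISAT2, StringTie, edgeR and GRCm39. Counting tool, annotation and strand setting are not given in the sources used here. For every gene the authors deposited unnormalized read counts and FPKM, which equals the count over the library total and 1 fixed length per gene (checked on 10819 genes). Counts were filtered with filterByExpr (minimum count 10), scaled by TMM (factors 0.973 to 1.02) and compared with edgeR 4.0.16 (R 4.3.3), quasi-likelihood test, two-sided, Benjamini-Hochberg over 14151 genes. Steps were tested on simulated data. Depth was 14726983 to 18536985 counts. No libraries agreed within counting noise (chi-square per degree of freedom 7.60 to 16.1 within groups). The labels do not say whether libraries are separate cultures or mice, so p-values measure the spread between these samples.

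The members and all gene lists were chosen with earlier results of these data known. Named were all members, *Sting1*, per pathway, zone or glucocorticoid list the 4 called genes of smallest adjusted p, per cell type the 3 markers of highest FPKM, and the 3 genes most like *Pck1* and *G6pc*. *G6pc2*, *G6pc3*, *Pkm*, *Epcam*, *Krt7*, *Krt19*, *Sds*, *Cd5l*, *Vsig4*, *Clec4f* and *Marco* were named outside this rule, after their values were seen. Some genes that this rule takes, and a ratio with one of them, are not reported here, while counts and medians of lists hold them. Exon lengths came from GENCODE M21 and promoters from RefSeq (GRCm38.p6), where 8 of 10 members matched. Replicate numbers were not taken to pair the libraries. Alternatives were DESeq2 1.42.0, upper-quartile factors, looser (1 count in any library) and stricter (10 counts in each) filters, the replicate block, limma 3.58.1 (limma-trend) on FPKM plus 1 or plus 0.1 in log2, omission of each library, and a pseudocount of 1 for ratios. The exon union length, the motif TTACGTNA and the alternatives for *Sting1* and the cell type, zone and glucocorticoid lists were chosen after seeing the data. Figures used matplotlib 3.10.9.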

Additional observations from a re-analysis of the deposited data

How the results depend on the processing

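Each of the 13 alternatives was run on every member, and of the 129 log2 fold changes this gave, 8 moved by more than the spread between replicates and none of the called members changed sign. The filter of at least 10 counts in every library dropped *G6pc*. With all genes of at least 1 count, *Ppargc1a* no longer passed. Counts of members under 0.05 ran from 5 to 6. Nothing is read from these calls, because the members were chosen with the differences already known. On log2(FPKM + 1) the members' values shrank, to -1.53 for *Pck1* and -0.78 for *G6pc*, and DEGs fell in number from 211 to 93 lower and from 79 to 38 higher. This scale understates low genes by construction, as does a pseudocount of 1 in the ratio of *Pck1* to *Pklr*, whose difference became -0.87 in place of -2.50. Testing every gene with at least 1 count gave 8 higher pathway genes in place of 14, 4 transcription factors in place of 8, 3 glucocorticoid genes in place of 5, and 0 isoenzymes and 0 SIK and AMPK kinases in place of 1 and 2. Limma-trend gave 3 glucocorticoid genes and 0 isoenzymes with either pseudocount, and DESeq2 gave 1 SIK and AMPK kinase. For these the cause was not tested.

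With 1 library left out, genes under 0.05 numbered 1052 to 1515 lower and 922 to 1510 higher, fewest without KO2. Pathway genes called higher numbered 7 to 12, glucagon and cAMP genes 4 to 6, transcription factors 3 to 7, SIK and AMPK kinases 0 to 2, isoenzymes 0 to 1, glucocorticoid genes 2 to 6, pericentral genes 4 to 8, macrophage markers 2 to 4 and endothelial markers 1 to 2. Such fits test fewer samples. The log2 fold change of *Sting1* ran from -0.26 to 0.11. Values near 0 also changed sign for *Cdh5* (-0.072 to 0.079, and -0.0026 with upper-quartile factors), *Eng* (-0.15 to 0.10) and *Sparc* (-0.17 to 0.051, and 0.0037 and 0.0064 on the FPKM scales).

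Correlations of same-numbered libraries were 0.118, 0.091 and 0.009, and those of differently numbered libraries ran from -0.141 to 0.048. All were small, and the numbers were not taken as pairs. The values for LOXP1 with KO1 and LOXP2 with KO2 were the highest, so a weak pairing is not excluded. With the replicate block, 1605 genes were lower and 1630 higher, pathway genes numbered 27 lower and 15 higher, and 6 members passed. *G6pc*, *Pck1* in KO and *Ppargc1a* rest on few counts, which limits the precision of their values.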
